A study of Homo sapiens with 4 samples.

Results

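The genes described here encode DNA topoisomerases and subunits of condensin. They were chosen by symbol, by a rule that uses no measured value although earlier results of these data were known, as 10 of the 20348 genes in the deposited count table: TOP1, TOP2A, TOP2B and TOP3A among the topoisomerases, and SMC2, SMC4, NCAPD2, NCAPG, NCAPH and NCAPG2 among the condensin genes. All 10 were found in the table and all 10 averaged 1 CPM (counts scaled to a common library total) or more in both cell lines. In K562, TOP1 and NCAPH rose past 2-fold in the periplocin library, TOP2A and NCAPG were higher by less than 2-fold, and the other 6 genes lay within 1.5-fold of DMSO. In THP-1 no member of the set reached 1.5-fold in either direction, and TOP2A and TOP1 had the highest ratios among the members.

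K562 is a human line from chronic myeloid leukemia and THP-1 a human line of acute monocytic leukemia. They received either the solvent DMSO or 100 nM periplocin, a cardiac glycoside, for 72 h, with no other treatment or genetic change named, and poly-A RNA was sequenced from 1 culture per condition, which gave 4 libraries. The titles of the control samples call them blank, whereas their library names and the study's methods say DMSO. The design asks how periplocin alters gene expression in each line, and a line that stands for a leukemia here is 1 line. Because each group is 1 library, the intervals given below are 95% intervals for counting error only, no difference has a replicate check, and no p-value is given for a comparison of 2 libraries.

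Topoisomerases cut and rejoin DNA to remove the twists and links that replication, transcription and chromosome segregation leave behind. Type I enzymes cut 1 strand at a time and type II enzymes cut both strands and pass another duplex through the gap. Condensin is a ring built on the SMC2 and SMC4 ATPases that folds chromatin into mitotic chromosomes. Condensin I carries NCAPD2, NCAPG and NCAPH, condensin II carries NCAPD3, NCAPG2 and NCAPH2, and in cycling cells the RNA of TOP2A and of several condensin genes is known to peak in G2 and mitosis.

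Genes of that phase often share a short promoter element, the cell cycle homology region (CHR), so the promoters of the members were searched for its letters, TTTGAA or TTCGAA, on both strands from 250 bases before to 50 after each RefSeq start on GRCh38.p14. All 10 members had an entry, and 7 of 10 held the letters: TOP2A, TOP2B, SMC2, SMC4, NCAPD2, NCAPG and NCAPG2. The share was 19.5% over all 27305 genes with a promoter entry and 76.2% (32 of 42) in a list of other G2/M genes. The stretches below are the matches that lie before the start of the topoisomerase II and condensin genes whose RNA is described next. Each is written 5′ to 3′ along the gene's strand, with the letters of the match in capitals, and TTCAAA is TTTGAA read on the opposite strand.
TOP2A, first match, chr17:40418073-40418102, minus strand: cgagtggtgcctTTTGAAgcctctctagtc
TOP2A, second match, chr17:40418030-40418059, minus strand: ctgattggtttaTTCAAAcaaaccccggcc
TOP2B, chr3:25665117-25665146, minus strand: ccctgctctcccTTCAAAtggaaaacccac
SMC4, chr3:160399563-160399592, plus strand: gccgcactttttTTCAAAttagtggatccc
NCAPD2, chr12:6493945-6493974, plus strand: cagccgttgagaTTTGAActcggtatttgt
NCAPG, chr4:17810932-17810961, plus strand: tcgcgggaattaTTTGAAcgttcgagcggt

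Counted from the start, with bases before it negative, the capitals begin at -194 and -151 in TOP2A, at -227 in TOP2B, where the match is in the second of its entries, at -75 in SMC4, at -145 in NCAPD2 and at -35 in NCAPG. For SMC4, NCAPD2 and NCAPG the stretch lies inside a longer transcript that GENCODE release 29 gives to the same gene. In SMC2 the match spans the start itself and in NCAPG2 it lies after it. TOP1, TOP3A and NCAPH had no match in this window. The letters CCAAT, on either strand, were found in TOP2A, TOP2B, NCAPD2 and NCAPH, or 4 of 10 members against 39.7% of all genes, and the E2F letters TTTCCCGC, TTTCGCGC, TTTGCCGC and TTTGGCGC in 0 of 10 against 3.99%. These are matches of letters and not shown binding sites. Of the 4 members at least 1.5-fold higher in K562 periplocin, TOP2A and NCAPG hold the CHR letters and TOP1 and NCAPH do not. A link between the letters and the response was not tested.

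Before treatment the members were abundant. TOP2A, the type II enzyme of dividing cells (chr17:40388516-40417950 on GRCh38, minus strand, 35 exons in its longest coding transcript), stood at 618 CPM in K562 DMSO and 604 in THP-1 DMSO, above 99.1% and 98.9% of the genes with counts in those libraries. TOP3A, a type I enzyme that resolves recombination intermediates in complex with BLM, was the lowest of the 10, at 62.6 CPM in K562 and 37.1 in THP-1. CPM here follow TMM scaling of the library sizes, and they compare 1 gene between libraries.

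Levels of different genes were compared as CPM per kilobase (kb) of the longest coding transcript. In K562 DMSO the order was TOP2A at 107, TOP2B at 67.1, SMC4 at 52.3, TOP1 at 49.2, NCAPD2 at 42.9, NCAPG2 at 37.1, NCAPG at 25.1, NCAPH at 23.6, SMC2 at 21.4 and TOP3A at 15.2 CPM per kb. NCAPG and NCAPH did not differ beyond counting error there. In THP-1 DMSO it was SMC4 at 116, TOP2B at 108, TOP2A at 105, TOP1 at 50.6, NCAPD2 at 36.5, NCAPH at 35.7, NCAPG at 35.2, NCAPG2 at 33.6, SMC2 at 27.5 and TOP3A at 9.0 CPM per kb. From NCAPD2 to NCAPG2 no neighbour in that order differed from the next beyond counting error. With the union of annotated exons as the length, SMC4 lay below TOP2B and TOP2A in THP-1 DMSO and below TOP1 and NCAPD2 in K562 DMSO, which put TOP1 in the 3rd place there, so the place of SMC4 rests on the transcript chosen.

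Under periplocin TOP2A led both lines, at 197 CPM per kb in K562 and 149 in THP-1. By the longest coding transcript TOP1 moved from the 4th to the 2nd place in K562, at 104 CPM per kb, and stayed 4th in THP-1, at 70.1. In K562 periplocin SMC4 (61.1), TOP2B (57.7), NCAPD2 (51.2), NCAPH (49.6), NCAPG (48.1), NCAPG2 (35.4), SMC2 (19.4) and TOP3A (12.8) followed, with NCAPD2, NCAPH and NCAPG not separable from their neighbours among the 3. In THP-1 periplocin the others were SMC4 (139), TOP2B (131), NCAPH (36.5), NCAPG2 (33.3), NCAPD2 (25.2), NCAPG (25.1), SMC2 (20.7) and TOP3A (6.88), with NCAPD2 and NCAPG not separable.

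**Figure D1:**
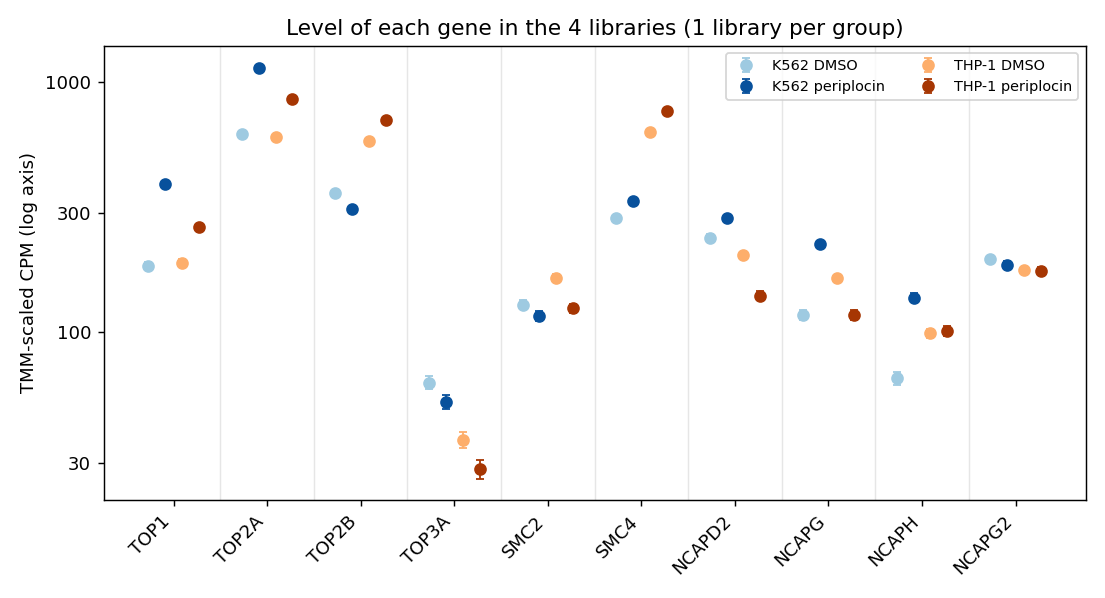
TMM-scaled CPM on a log axis for each of the 10 genes in the 4 libraries, 1 point per library, with error bars for counting error at 95%. TOP2A runs from 604 to 1133 CPM and TOP3A from 28.3 to 62.6 CPM, and the K562 periplocin point stands highest for TOP1, TOP2A, NCAPD2, NCAPG and NCAPH.

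Between the DMSO libraries of the lines the largest difference among the members was in SMC4, an ATPase of both condensins, with 4878 counts in K562 and 12481 in THP-1, or 286 and 632 CPM. It was 2.21-fold higher in THP-1 and the 1 member of 10 past 2-fold, where 22.9% of 12849 genes were at least 2-fold higher and 21% at least 2-fold lower in THP-1. TOP2B, the type II enzyme that resting cells also express, was 1.61-fold higher in THP-1, at 359 CPM in K562 and 579 in THP-1. NCAPH was 1.51-fold and NCAPG 1.40-fold higher in THP-1, and TOP3A was 1.69-fold higher in K562. Thus the lines entered treatment with nearly equal TOP1 and TOP2A but unequal SMC4, TOP2B, NCAPH, NCAPG and TOP3A, among others. The log2 ratio of THP-1 over K562 was 0.04 for TOP1 (interval -0.03 to 0.11) and -0.03 for TOP2A (-0.07 to 0.00). Scaling by total counts shifted the median gene of this comparison by -0.12 on the log2 scale. It put TOP1 at -0.08 and TOP2A at -0.15, each outside its counting interval.

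In K562, 2 of 10 members were at least 2-fold higher in periplocin, against 8.86% of 11814 genes averaging 1 CPM or more, and 0 of 10 were at least 2-fold lower, against 11.4%. Of the 2, TOP1 had a counting interval wholly above 2-fold and that of NCAPH includes 2-fold, as does that of NCAPG just below the cutoff. At 1.5-fold, 4 members were higher (19% of genes) and 0 lower (21.9% of genes). In THP-1, 0 of 10 were at least 2-fold higher (8.06% of 12393 genes) or 2-fold lower (10.7%), and 0 of 10 passed 1.5-fold in either direction (17.1% and 21.5%). All 10 members are well expressed, and among the genes that averaged 10 CPM or more the K562 shares at 2-fold were 6.69% higher and 7.36% lower. The median log2 ratio of the 10 members was 0.24 in K562 and 0.01 in THP-1, beside -0.01 and -0.03 over all genes. By direction alone, 6 members were higher and 4 lower in K562, beside 5822 and 5992 of the 11814 genes. In THP-1, 5 were higher and 5 lower, beside 5963 and 6430 of the 12393 genes.

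TOP1, the type I enzyme that relaxes DNA ahead of polymerases and the target of camptothecins (chr20:41028818-41124487), had 3135 counts in K562 DMSO and 6752 in K562 periplocin, or 184 and 389 CPM. In THP-1 it had 3739 and 4435 counts, or 189 and 262 CPM. The log2 ratio of periplocin over DMSO was 1.08 in K562 (interval 1.02 to 1.14) and 0.47 in THP-1 (0.41 to 0.53). TOP1 was thus higher in periplocin in both lines from nearly the same starting level, and its K562 fold was 2.12 against 1.39 in THP-1.

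TOP2A, whose product is the target of etoposide and doxorubicin, stood at 618 CPM in K562 DMSO and 1133 after periplocin, and at 604 and 856 CPM in the corresponding THP-1 libraries. These levels were 1.83-fold higher in K562 and 1.42-fold higher in THP-1. TOP2B (chr3:25597905-25664907) stood at 359, 309, 579 and 701 CPM in the same order. Its log2 ratio was -0.22 in K562 (interval -0.27 to -0.16) and 0.28 in THP-1 (0.24 to 0.31), so the paralogues differed in direction in K562 and were both higher in THP-1.

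The share of TOP2A in the counts of both topoisomerase II genes was 63.2% in K562 DMSO (exact binomial interval 62.5 to 64.0%) and 78.6% in K562 periplocin (78.0 to 79.1%). In THP-1 it was 51.1% (50.4 to 51.7%) and 55.0% (54.4 to 55.6%). Per kb of transcript TOP2A was 1.60 times TOP2B in K562 DMSO and 3.41 times in K562 periplocin, and 0.971 and 1.14 times in THP-1. The mixture of the paralogues therefore differed more between the K562 libraries than between the THP-1 libraries.

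**Figure D2:**
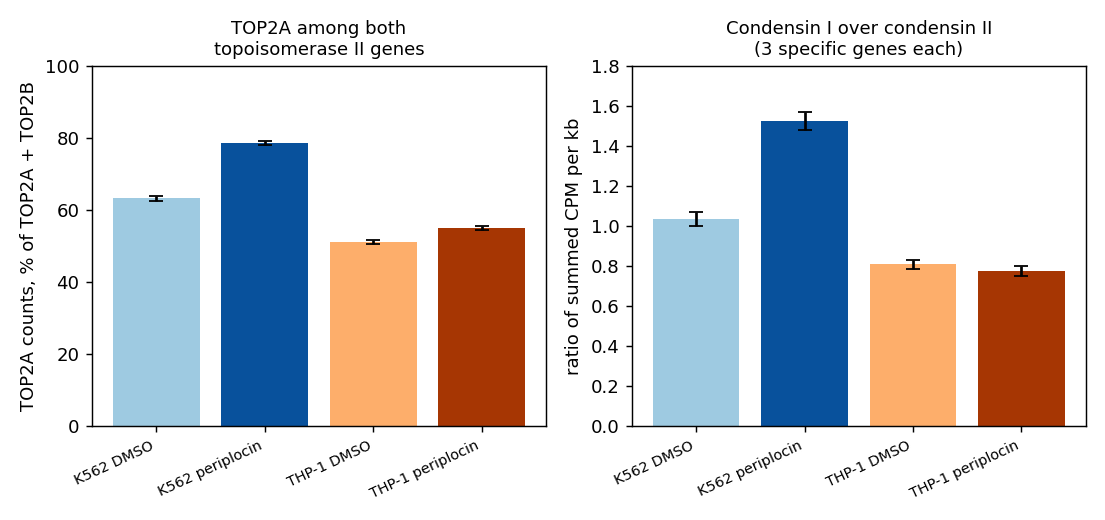
Left, TOP2A counts as a percent of TOP2A plus TOP2B counts in each of the 4 libraries. Right, the summed CPM per kb of NCAPD2, NCAPG and NCAPH over that of NCAPD3, NCAPG2 and NCAPH2. Bars are 95% counting intervals, and K562 periplocin has the highest value in both panels, at 78.6% and 1.52.

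Of the 4 topoisomerases in the set, TOP3A alone had lower values under periplocin in both lines, at 62.6 and 52.5 CPM in K562 and 37.1 and 28.3 CPM in THP-1. The log2 ratios were -0.26 (interval -0.38 to -0.13) and -0.39 (-0.56 to -0.22), both under 1.5-fold. Of the other topoisomerase genes, TOP1MT, the mitochondrial type I enzyme, had log2 ratios of -0.12 in K562 and -0.56 in THP-1, and TOP3B, a topoisomerase that also acts on RNA, 0.53 and 0.05. TOP3B was 4.37-fold higher in K562 DMSO than in THP-1 DMSO. Across the 6 topoisomerase genes 3 were higher and 3 lower in K562, with TOP1 alone past 2-fold, and 4 were higher and 2 lower in THP-1, with none past 2-fold.

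Among 10 genes for partners of topoisomerases and for removal of trapped topoisomerase, 4 were higher and 6 lower in K562, 5 were higher and 5 lower in THP-1, and none passed 2-fold in either line. Their median log2 ratio was -0.14 in K562 and -0.02 in THP-1.

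NCAPH, the kleisin that closes the condensin I ring (chr2:96335787-96373845), had 1112 counts in K562 DMSO and 2381 in K562 periplocin, or 65.2 and 137 CPM. In THP-1 it had 1948 and 1708 counts, or 98.6 and 101 CPM. NCAPH rose 2.10-fold in K562 (log2 ratio 1.07, interval 0.97 to 1.18), and in THP-1 the log2 ratio was 0.03 (-0.06 to 0.13), within counting error.

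NCAPG, a HEAT-repeat subunit of condensin I (chr4:17810902-17844862), stood at 117 CPM without and 224 CPM with periplocin in K562, and at 164 CPM without and 117 CPM with it in THP-1. It was 1.91-fold higher in K562 and lower in THP-1, with log2 ratios of 0.94 (interval 0.86 to 1.01) and -0.49 (-0.57 to -0.41). LCORL lies on the opposite strand and shares 1631 exon bases with NCAPG, and the strand setting of the counts is not given in the sources used here, so reads of that stretch cannot be told apart. LCORL had 559 counts in DMSO and 1061 in periplocin in K562, against 920 and 1384 in THP-1, higher in both lines where NCAPG was higher in K562 only.

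NCAPD2, the other HEAT-repeat subunit of condensin I (chr12:6493356-6531955), stood at 238 and 284 CPM in the K562 libraries, DMSO first, and at 203 and 140 CPM in the THP-1 libraries. Its log2 ratio was 0.26 in K562 (interval 0.20 to 0.32) and -0.54 in THP-1 (-0.61 to -0.46). Among the 10 members this was the lowest ratio in THP-1. MRPL51, which shares 486 exon bases with it on the opposite strand, had log2 ratios of 0.12 and 0.11, with intervals that include 0.

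NCAPG2, the subunit of condensin II in the set (chr7:158631311-158704829), was nearly level, at 195 and 186 CPM in K562 and 176 and 175 CPM in THP-1. The log2 ratios were -0.07 (interval -0.14 to 0.00) and -0.01 (-0.08 to 0.06), and with DESeq2 size factors the THP-1 value was 0.03. Its partner subunits were not in the set. NCAPD3 had log2 ratios of 0.28 in K562 and -0.36 in THP-1, and NCAPH2 0.27 and -0.29.

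The shared ATPases differed from each other. SMC4 (chr3:160399274-160434962) stood at 286 and 335 CPM in K562 and at 632 and 761 CPM in THP-1, with log2 ratios of 0.23 (interval 0.17 to 0.28) and 0.27 (0.23 to 0.30). SMC2 (chr9:104094260-104141417) stood at 128 and 116 CPM in K562 and at 165 and 124 CPM in THP-1, with log2 ratios of -0.15 (-0.23 to -0.06) and -0.41 (-0.49 to -0.33). SMC4 was therefore higher and SMC2 lower under periplocin in both lines.

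Since the proteins pair in equal number, the RNA ratio is given for reference: SMC4 per kb was 2.44 and 3.16 times SMC2 in K562 DMSO and periplocin, and 4.21 and 6.72 times in THP-1. With the union of annotated exons as the length, SMC4 was still above SMC2 but by less. It stood at 33.8 against 19.85 CPM per kb in K562 DMSO and at 90.0 against 19.2 in THP-1 periplocin. The size of the ratio therefore rests on the length used. SMC4 shares exon bases on the opposite strand with TRIM59 (1561 bases, log2 ratios 0.66 in K562 and -0.21 in THP-1) and IFT80 (607 bases, -0.74 and -0.12). Their reads cannot be told apart from those of SMC4 over the shared bases, and their counts were lower than those of SMC4, at most 1593 for TRIM59 and 1159 for IFT80 in any library.

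**Figure D3:**
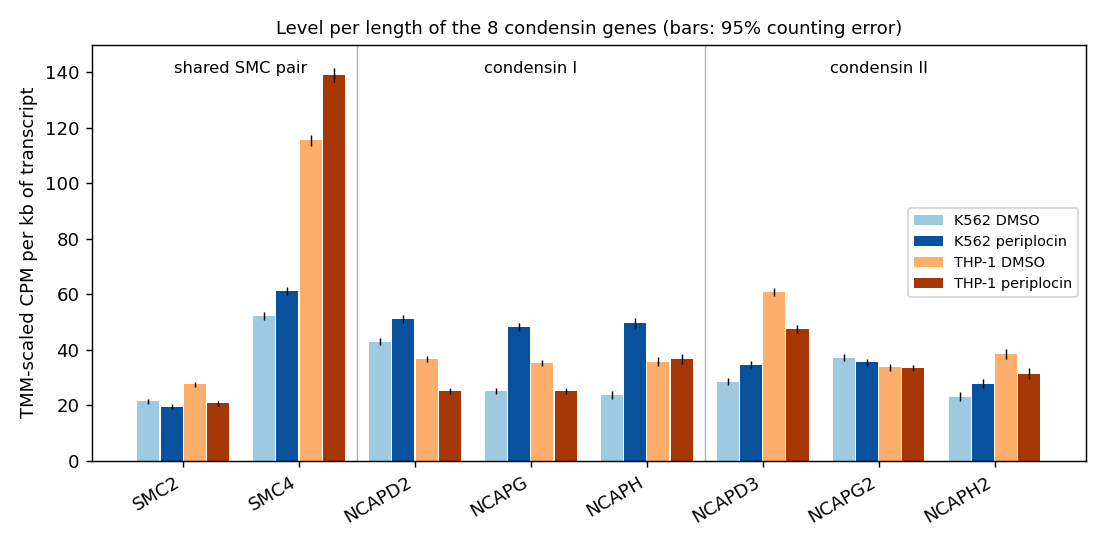
CPM per kb of the longest coding transcript for the 8 condensin I and II genes, with 1 bar per library from 0 and 95% counting error. By this length SMC4 is the highest of the 8 in every library, from 52.3 to 139 CPM per kb, whereas by the union of annotated exons it lies below NCAPD2 in both K562 libraries and below NCAPG and NCAPH in K562 periplocin, and the bars of NCAPH and NCAPG are at their highest in K562 periplocin.

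Added up, the 3 subunits particular to condensin I had 7172 counts in DMSO and 11212 in periplocin in K562 (log2 ratio 0.62, interval 0.58 to 0.66), while THP-1 had 9188 and 6046 (-0.38, -0.43 to -0.33). The 3 subunits particular to condensin II had 6568 and 7235 counts in K562 (0.11, 0.06 to 0.16) against 11076 and 8074 in THP-1 (-0.23, -0.27 to -0.19). Per kb, condensin I over condensin II was 1.03 in K562 DMSO (1.00 to 1.07) and 1.52 after periplocin (1.48 to 1.57), and THP-1 gave 0.809 in DMSO (0.787 to 0.831) and 0.774 after periplocin (0.749 to 0.801). The ratio thus differed between the K562 libraries and stayed close between the THP-1 libraries. With the union of annotated exons as the length it was 1.38, 2.07, 1.14 and 1.07 in the same order, so whether condensin I lay above or below condensin II in THP-1 depends on the length used.

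Of all 8 condensin genes 6 were higher and 2 lower in K562, with a median log2 ratio of 0.26 and NCAPH alone past 2-fold. In THP-1, 2 were higher and 6 lower, with a median of -0.33 and none past 2-fold.

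The difference between the lines, as the log2 ratio in THP-1 minus that in K562, was -1.42 for NCAPG (interval -1.54 to -1.31), -1.04 for NCAPH (-1.18 to -0.90) and -0.79 for NCAPD2 (-0.89 to -0.70), the condensin I subunits. It was -0.61 for TOP1, -0.37 for TOP2A and -0.26 for SMC2. For SMC4, NCAPG2 and TOP3A it was 0.04, 0.06 and -0.13, with intervals that include 0, and for TOP2B it was 0.49 (0.43 to 0.56). The condensin II subunits outside the set also had negative differences, -0.64 for NCAPD3 (-0.74 to -0.54) and -0.56 for NCAPH2 (-0.74 to -0.38). A lower ratio in THP-1 was therefore not particular to condensin I. NCAPG, NCAPD2 and TOP2B, or 3 of 10 members, had opposite signs in the lines with both intervals off 0. Over 10781 genes that averaged 1 CPM or more in both lines, 38.3% had opposite signs, counted without regard to intervals, and the median absolute difference was 0.48. With 1 library per condition this difference leaves no residual degrees of freedom and was not tested.

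**Figure D4:**
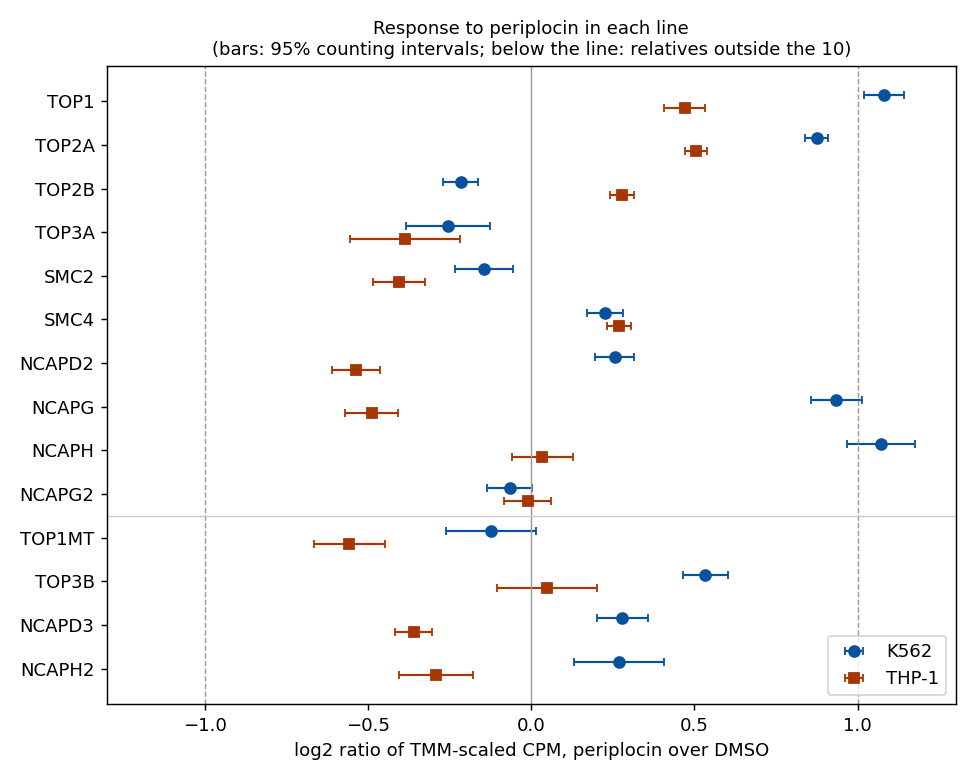
Log2 ratio of TMM-scaled CPM, periplocin over DMSO, for the 10 genes and, under the dividing line, 4 relatives outside the set, in K562 and THP-1, with 95% counting intervals. TOP1 and TOP2A lie to the right of 0 in both lines, while NCAPG and NCAPD2 lie to the right in K562 and to the left in THP-1.

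A fit over all 4 libraries, with terms for treatment and for cell line, takes the disagreement of the lines as its error and has 1 residual degree of freedom. In edgeR's quasi-likelihood test 0 of 10 members passed an adjusted p of 0.05, as 0 of 13584 genes (0%) did. TOP1 had a log2 treatment effect of 0.78 with an unadjusted p of 0.0394 and an adjusted p of 0.432 in edgeR, and was higher in periplocin in 2 of 2 lines. In edgeR with TMM scaling and the filter on low counts, it was the 1 member with an unadjusted p under 0.05, which 11% of all genes had. TOP2A had an effect of 0.69 with an unadjusted p of 0.0525 and an adjusted p of 0.459 in that edgeR fit, and NCAPH an effect of 0.55 with an adjusted p of 0.577. In edgeR with DESeq2 size factors, with total counts or with no filter, and in DESeq2, the unadjusted p of TOP2A was also under 0.05. DESeq2 with the same terms called 131 of 11213 genes (1.17%) and 0 of 10 members, with adjusted p of 0.302 for TOP1 and 0.293 for TOP2A.

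Other genes of chromosome structure and of the cell cycle were read from lists. In K562 all 14 regulators of condensin and mitotic chromosome proteins were higher, 6 of them past 2-fold, with a median log2 ratio of 0.75. The largest were AURKA (1.88) and PLK1 (1.87), mitotic kinases, and CCNB1 (1.56), the cyclin partner of CDK1, which phosphorylates condensin. In THP-1, 12 of 14 were higher, none past 2-fold, with a median of 0.21. Of 50 G2/M genes other than the members, 45 were higher in K562, 17 of them past 2-fold, with a median of 0.73 and the largest log2 ratios in AURKA, BUB1 (1.71) and CDC20 (1.65). In THP-1, 26 of 51 were higher, none past 2-fold, with a median of 0.01. CDK1, AURKA, AURKB, MKI67 and TTK stand in both lists.

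S phase genes gave another picture. Of 43, 16 were higher and 27 lower in K562, with 4 past 2-fold lower and a median log2 ratio of -0.11, and the largest were RRM2 (-1.55), a subunit of ribonucleotide reductase, PRIM1 (-1.54), the primase, and CCNE2 (-1.16). In THP-1 all 43 were lower, 6 of them past 2-fold, with a median of -0.64, and RRM2 (-1.93), UNG (-1.76) and CDCA7 (-1.75) were the largest. The 43 include genes whose counting interval includes 0, and DESeq2 size factors shifted the median of all genes in THP-1 by 0.04. Summed CPM of the G2/M list was 6151 in DMSO and 9534 in periplocin for K562 and 7628 and 7562 for THP-1, and that of the S phase list was 5169 and 5133 for K562 and 6085 and 4147 for THP-1. The G2/M sum was thus higher in K562 periplocin, where 6 members of the set were higher and 4 lower. The S phase sum was lower in THP-1 periplocin, where 5 members were higher and 5 lower. Both splits of the members lay near the splits of all genes given above. The S phase sum in K562 and the G2/M sum in THP-1 stayed close to DMSO. The part of cells' position in the cycle in the members' values was not tested. In RNA from a whole culture, more cells in a phase and more RNA per cell cannot be told apart.

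Other SMC complexes were read in the same way. Of 17 genes of cohesin and its regulators 12 were higher in K562, with a median log2 ratio of 0.21 and 1 past 2-fold, PTTG1, the securin that holds separase in check, at 1.60. In THP-1, 8 of 17 were higher with a median of -0.02 and none past 2-fold. In the SMC5/6 complex, which acts in recombination and repair, 8 of 9 genes passed 1 CPM, with medians of 0.01 in K562 and -0.06 in THP-1, while EID3 had at most 5 counts in any library. SMC5 had log2 ratios of 0.64 and 0.66 and SMC6 0.37 and 0.15, higher in both lines. NSMCE4A had -0.66 in K562 and fell past 2-fold in THP-1 (-1.25, from 739 to 267 counts). NSMCE1 (-0.94 and -0.70) was lower in both lines, and NSMCE3 (-0.13 and -0.12) was within counting error in both. NSMCE2 (0.56 and -0.05) and SLF2 (-0.70 and -0.07) differed mainly in K562, and SLF1 stood at 0.15 and 0.18.

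**Figure D5:**
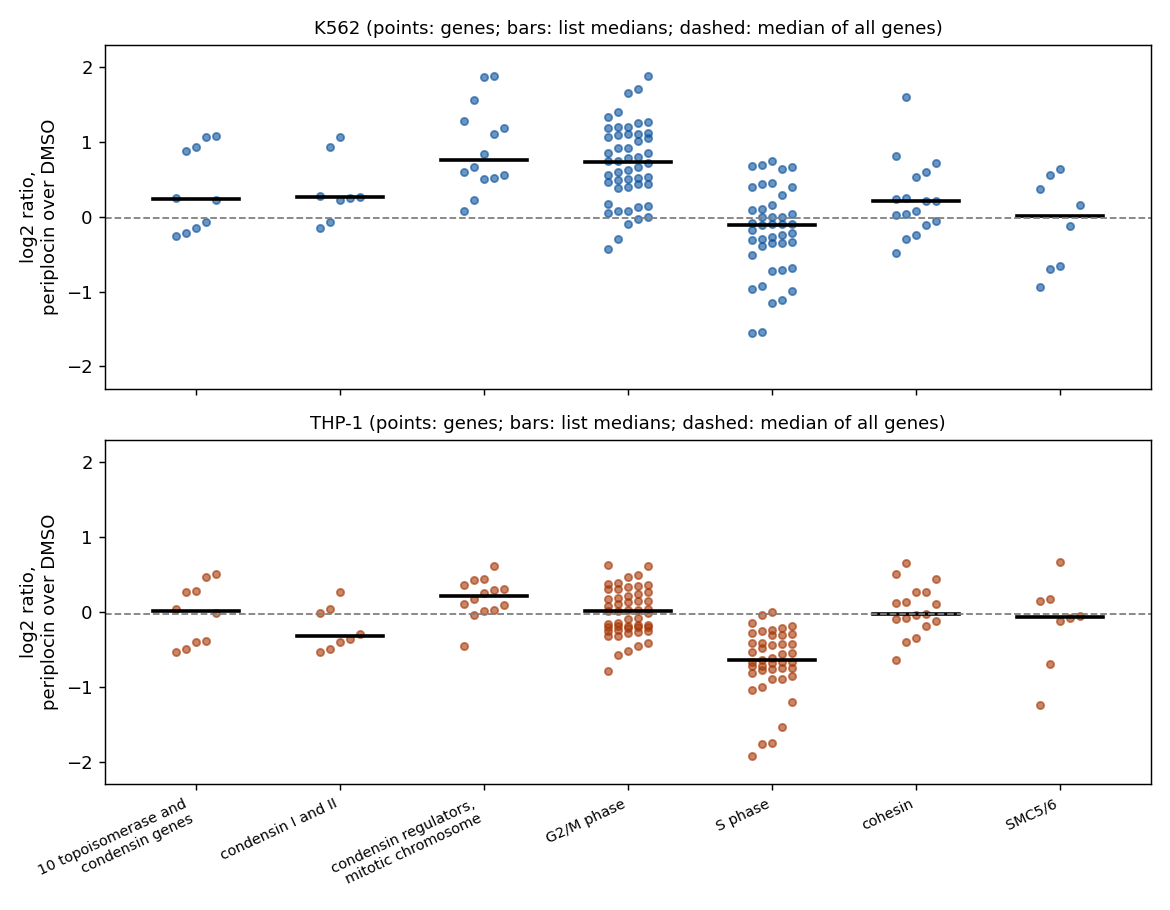
Log2 ratio of each gene, periplocin over DMSO, by list, in K562 and THP-1. Points are genes, short bars are list medians and the dashed line is the median of all genes. The medians of the regulator and G2/M lists are 0.75 and 0.73 in K562, and the S phase median is -0.64 in THP-1.

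The genes whose pattern over the 4 libraries lay nearest to TOP2A, by distance between centred log2 CPM among 9788 genes averaging 10 CPM or more, were MIB2 (0.04), SFPQ (0.06), ZC3HAV1 (0.07), SPSB3 (0.08) and SLC7A6OS (0.08). SFPQ, for example, stood at 462 and 850 CPM in the K562 libraries, DMSO first, and at 428 and 635 CPM in the THP-1 libraries. Nearest to TOP2B were WASHC5 (0.04), YWHAB (0.06), CRTC1 (0.07), HSPH1 (0.09) and ZBTB48 (0.09). For none of the 10 members was another member, or a gene of the G2/M or S phase list, among the 5 nearest genes. With 4 libraries such nearness is a description of these values.

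Library totals ran from 16381149 to 20622694 counts, so the members, with 479 to 19685 counts each, have small counting errors. Mitochondrially encoded genes took 5.62% of counts in K562 DMSO and 2.07% in K562 periplocin, and 5.24% and 3.93% in THP-1. All 9 K562 markers, among them the erythroid genes GATA1 and KLF1, passed 1 CPM in K562, and all 9 were higher in its periplocin library, 8 of them past 2-fold, with a summed level of 2532 CPM in DMSO and 9704 in periplocin. TFRC supplied 615 and 1659 CPM of these sums. In THP-1, 3 of these 9 passed 1 CPM, among them TFRC at 257 CPM in DMSO and 251 in periplocin, so TFRC does not mark K562 alone. GATA1 had at most 3 counts in either THP-1 library. All 10 THP-1 markers passed 1 CPM in THP-1, although MPO had only 43 and 14 counts, and 5 were higher and 5 lower under periplocin, with a median log2 ratio of 0.11. Their sum was 1835 CPM in DMSO and 2702 in periplocin, and PTPRC alone went from 458 to 1090 CPM. In K562, 5 of these 10 passed 1 CPM, and MPO was at 0 and CSF1R at 3 counts in both libraries. The marker shift in K562 accompanied the higher TOP1, TOP2A, NCAPG and NCAPH, and its part in those values was not tested.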

How the data were processed

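Poly-A RNA of 4 libraries was analysed, 1 per cell line and treatment, named as groups from the sample labels, with dose and time from the study's methods. The authors deposited one table of expected counts per gene, not normalized, of which 87.4% to 88.3% per library are whole. The submitters' processing notes name HISAT2, StringTie 1.3.1 and hg38, without roles. The counting program, annotation and strand setting are not given in the sources used here, and the methods name the T7 platform where the labels name an Illumina instrument. Ambiguous reads divided between genes or removed before counting would change the counts of paralogues and overlapping genes.

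Expected counts were rounded and scaled by TMM over the 4 libraries (edgeR 4.0.16, R 4.3.3). A log2 ratio used a prior count of 0.125, with an exact conditional binomial interval (Clopper-Pearson, 95%) that covers counting error only. Shares of genes used those averaging 1 CPM or more in the pair, and a call was 2-fold. The fit over 4 libraries used edgeR's quasi-likelihood test with Benjamini-Hochberg adjustment, on genes that reached 10 counts in 2 or more libraries, and DESeq2 1.42.0 as the alternative, where 2371 genes had no adjusted p. On simulated data with 200 genes changed 4-fold, the edgeR fit recovered 200 with 7 other calls among 13584 genes. The simulation changed only genes with high counts, by the same fold in both lines. It also set less spread between libraries than the fit estimated from the real counts. It therefore checks that the fit runs as intended and does not measure its power on these data. Alternatives were other scalings, folds, filters, prior counts and gene lengths, and counts left unrounded.

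Symbols were taken by Ensembl identifier for 20310 of 20348 genes, and positions and lengths from GENCODE release 29 (GRCh38) for 20118. Promoters are from RefSeq. Python 3.11.15, numpy 2.4.6, pandas 2.3.3, scipy 1.17.1 and matplotlib 3.10.9 were used. The members and lists were chosen with earlier results of these data known. Named genes are the members, all genes of the topoisomerase, condensin and SMC5/6 lists, the 3 largest changes past 2-fold in longer lists among those averaging 10 CPM or more, and the nearest genes of TOP2A and TOP2B. LCORL, MRPL51, TRIM59 and IFT80 were named for their overlap with members and marker genes from the marker lists. Of the K562 marker list, 1 gene is not reported here and was left out of its counts and sums.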

Additional observations from a re-analysis of the deposited data

Results flagged for a closer look

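For 3 of the 10 members the log2 ratio of periplocin over DMSO had opposite signs in the lines, with both counting intervals off 0. Counted by sign alone, without regard to intervals, it was also 3 of 10 members, beside 38.3% of 10781 genes averaging 1 CPM or more in both lines. With DESeq2 size factors NCAPG2 had opposite signs too, at -0.07 in K562 and 0.03 in THP-1. NCAPG was higher in K562 and lower in THP-1, a difference of -1.42 (THP-1 minus K562), NCAPD2 likewise, with -0.79, and TOP2B was lower in K562 and higher in THP-1, with 0.49. Each value rests on 4 libraries, 1 per condition, and none of these differences was tested.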

How the results depend on the processing

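Of 180 log2 ratios of members recomputed under other scalings, another prior count and unrounded counts, 178 kept their sign and 168 stayed within the counting interval, with a largest shift of 0.12. The 12 outside the interval came from DESeq2 size factors (3) and total counts (9). The other settings can move ratios of genes with such high counts only a little, so the pooled count says little about them. The 2 that changed sign were NCAPG2 in THP-1 with DESeq2 size factors (0.03) and TOP1 between the DMSO libraries with total counts (-0.08). With 1.5-fold in place of 2-fold, 4 members and not 2 were higher in K562, where the share of all genes was 19% and not 8.86%. The fit over 4 libraries called 0 genes with DESeq2 size factors, 1 with total counts, 1 with no filter on low counts and 131 with DESeq2, against 0, and the cause was not tested. The number of all genes past 2-fold moved with the filter. In K562 it was 1047 higher and 1349 lower, 2643 and 2529 with no filter, and 617 and 678 at 10 CPM. In THP-1 it was 999 and 1325, 2291 and 2516, and 496 and 639. Apart from the fit over 4 libraries, whose term for cell line sets periplocin against DMSO within each line, no paired analysis was possible because each group has 1 library, and for the same reason no replicate could be left out. Counting error is small for these genes at this depth, and the spread between cultures is unknown.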
